A study of Mus musculus with 7 samples.

Results

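Genes of rod and cone photoreceptors were examined in libraries made from mouse retinal pigment epithelium (RPE), through 38 genes of phototransduction, outer segment structure and photoreceptor identity. The genes were chosen by name as rod genes (11), cone genes (8) or genes used by both cell types (19), and are 38 of the 52740 Ensembl identifiers in the deposited counts; all 38 passed the filter on low counts, which left 16990 genes for testing. The study compared RPE of aged WT and LC3b-/- mice, the latter lacking microtubule-associated protein 1 light chain 3 beta, a protein that is attached to phagosomes holding ingested outer segments. The WT libraries came from 4 C57BL6/J mice (females F1, F2 and F3 and male M1) and the LC3b-/- libraries from 3 mice of the strain B6;129P2-Map1Lc3btm1Mrab/J (females F1 and F3 and male M), all labelled 24 months old and with no treatment named in the labels. The deletion is carried by every cell of these mice and not by the RPE alone, and strain background cannot be told apart from genotype. Neither can a number within the mouse names, which differs between the genotypes and whose meaning (a litter or cage, for example) the labels do not give. All WT mice share the same number. Within LC3b-/- both females share a number and the male has another, so there it cannot be told apart from sex. RPE was collected by enzymatic release after the neural retina had been pulled away from the eyecup, 1 library per mouse.

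Rods and cones convert light into an electrical signal in their outer segments. Photoisomerized opsin activates transducin, transducin relieves phosphodiesterase 6 of its inhibitory gamma subunit, cyclic GMP is hydrolysed, and cyclic nucleotide-gated channels close; arrestin ends the signal at the opsin, and guanylate cyclases with their calcium sensors restore cyclic GMP. Rods and cones build most of these parts from separate genes. RPE cells are not known to detect light through this cascade, but lie against the outer segments and take up shed tips, so the genes were chosen as markers of RNA from a neighbouring cell. Most of them varied together from library to library, but Slc24a1, Abca4, Unc119, Gnat2, Rom1 and Gngt2 did so much less, and these 6 are described here as genes of the list only.

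The labels were checked first. Map1lc3b, the targeted gene, had 2778 to 4444 counts in the WT libraries and 168 to 332 in the LC3b-/- libraries. The deposited counts summed to between 24495952 and 35616134 per library. All 12 RPE markers examined, among them Rpe65, Rlbp1 and Rgr, passed the filter, and together they made up 3.16% to 4.92% of the counts in WT and 1.31% to 3.00% in LC3b-/-. Levels below are CPM, that is counts per 1000000 counts of the library after TMM scaling, where 3 counts correspond to between 0.0751 and 0.124 CPM depending on the library. Nothing states that any 2 libraries share an animal, so p-values reflect the spread between mice and library preparation together.

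As a set the 38 genes had counts in all 7 libraries, though Pde6h, Cnga3 and Rdh8 had 0 in WT M1. The level of the 38 genes differed far more between mice of 1 genotype than between the genotypes. The 38 genes took 0.349%, 2.02%, 1.06% and 0.220% of the counts in WT, and 0.0735%, 0.902% and 0.424% in LC3b-/-; values of the libraries are always listed in the order F1, F2, F3, M1 for WT and F1, F3, M for LC3b-/-. The arrestins show the range. Sag, the rod arrestin (chromosome 1, 87731402 to 87772880, GRCm39), stood at 205, 1653, 849 and 2.73 CPM in WT and at 7.28, 905 and 307 CPM in LC3b-/-. The highest and lowest of these values, both from WT mice, are 606-fold apart. Arr3, the cone arrestin (chromosome X, 99649101 to 99662099), stood at 19.3, 143, 38.8 and 0.154 CPM in WT and at 0.0402, 29.8 and 13.7 CPM in LC3b-/-; the lowest value is a single count. For both arrestins WT M1 and LC3b-/- F1 lay far below the other 5 libraries, and the genotypes overlapped. Fewer photoreceptor fragments in a library and less RNA in each cannot be told apart in bulk RNA.

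The order of the libraries was nearly the same from gene to gene. WT F2 was the highest library for 37 of the 38 genes, the exception being Opn1sw, which was highest in LC3b-/- F3. Within WT, F2 was above F3 and F3 above F1 for 37 genes, and within LC3b-/-, F3 was above M and M above F1 for 36. The lowest library was WT M1 for 25 genes and LC3b-/- F1 for 13. For 32 genes these were the 2 lowest libraries, and the others were Slc24a1, Gnat2, Rom1, Gucy2e, Abca4 and Unc119. Of the 29 genes with more than 3 counts in every library, 19 differed more than 100-fold between the highest and the lowest library and 8 less than 30-fold. WT M1 is 1 of 2 male libraries, and the other, LC3b-/- M, was not among the lowest; with 1 male per genotype, a male library and its mouse cannot be told apart.

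**Figure D1:**
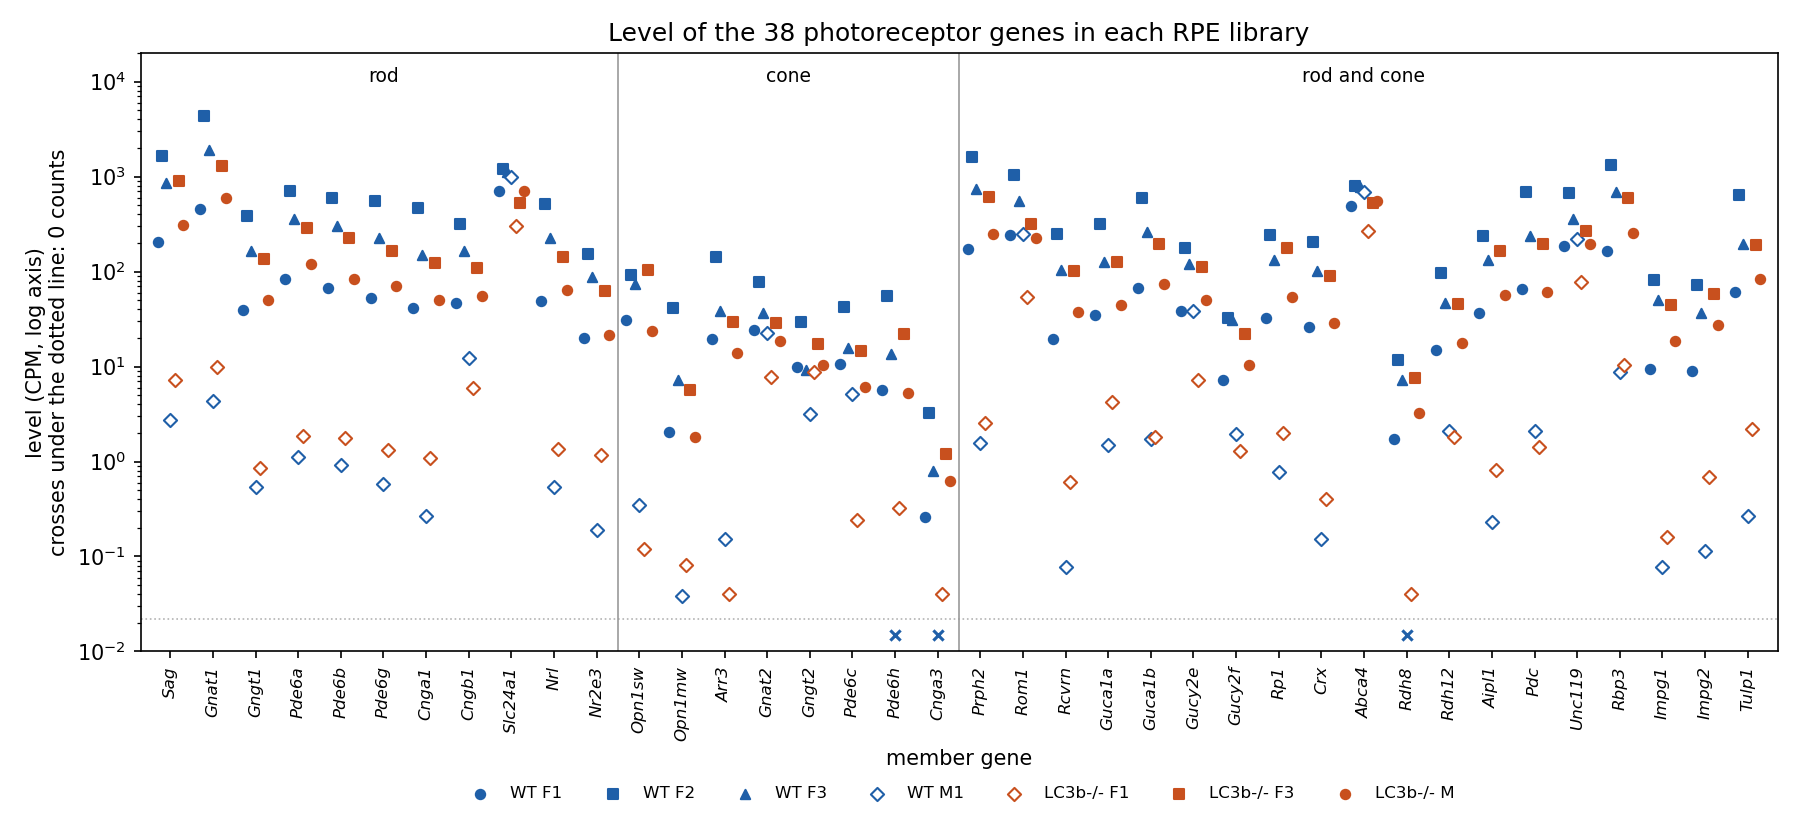
Level of each of the 38 genes (x axis) in each of the 7 libraries (y axis, CPM, log axis; blue WT, orange LC3b-/-; crosses mark 0 counts). The open diamonds, WT M1 and LC3b-/- F1, lie far under the filled symbols for Sag, Gnat1 and most other genes, and much nearer to them for Slc24a1 and Abca4.

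Among the transducin genes, Gnat1, the rod alpha subunit and the most abundant of the 38 per kilobase of transcript in WT F2 (1852 CPM per kilobase), stood at 456, 4312, 1884 and 4.38 CPM in WT and at 9.82, 1303 and 592 CPM in LC3b-/-. Gnat2, the cone alpha subunit, stood at 24.2, 78.3, 36.8 and 22.5 CPM in WT and at 7.72, 28.7 and 18.4 CPM in LC3b-/-. The rod subunit thus varied 985-fold over the libraries and the cone subunit 10.1-fold, and WT M1 held more Gnat2 than Gnat1, also per kilobase (0.172 Gnat1 per Gnat2). Gngt1, the rod gamma subunit, stood at 39.04, 386, 163 and 0.538 CPM in WT and at 0.845, 134 and 50.7 CPM in LC3b-/-, while Gngt2, the cone gamma subunit, stood at 9.94, 29.2, 9.20 and 3.15 CPM and at 8.81, 17.4 and 10.4 CPM. Pdc, phosducin, which binds transducin's beta and gamma subunits, ranged from 1.41 CPM in LC3b-/- F1 to 682 CPM in WT F2. Stretches of Gnat2 are nearly identical to the predicted gene Gm49651, as stretches of Guca1a are to Gm50461, so counts of these 2 members may have been split; no rod gene was nearly identical to its cone partner.

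Among the subunits of phosphodiesterase 6, the rod catalytic genes Pde6a and Pde6b followed Sag. Pde6a stood at 83.2, 709, 358 and 1.11 CPM in WT and at 1.85, 290.2 and 121 CPM in LC3b-/-. Pde6b stood at 67.6, 591, 303 and 0.922 CPM and at 1.77, 228 and 83.0 CPM. Pde6c, the cone catalytic gene, differed: it stood at 10.7, 42.8, 15.8 and 5.19 CPM in WT and at 0.241, 14.4 and 6.02 CPM in LC3b-/-. WT M1 was below WT F1 here too, but by much less than for Pde6a and Pde6b. The rod inhibitory subunit Pde6g stood at 52.6, 548, 228 and 0.576 CPM and at 1.33, 164 and 70.5 CPM. Its cone partner Pde6h stood at 5.61, 55.1, 13.7 and 0 CPM and at 0.322, 22.04 and 5.28 CPM, the 0 in WT M1 allowing up to 0.115 CPM.

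Of the channel and exchanger genes, Cnga1, the rod channel alpha subunit, stood at 41.1, 463, 150.4 and 0.269 CPM in WT and at 1.09, 123 and 49.9 CPM in LC3b-/-. Its cone partner Cnga3 was low throughout, at 0.263, 3.23, 0.786 and 0 CPM and at 0.0402, 1.20 and 0.620 CPM. Cngb1, the rod beta subunit, ranged from 5.99 CPM in LC3b-/- F1 to 317 CPM in WT F2. Slc24a1, the rod sodium, calcium and potassium exchanger (chromosome 9, 64830143 to 64858889), did not follow them. It stood at 699, 1198, 1109 and 990.0 CPM in WT and at 304, 527 and 708 CPM in LC3b-/-, a 3.94-fold range in all, with WT M1 the third highest library.

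The cone opsins did not keep 1 ratio. Opn1sw, the short-wavelength opsin, stood at 31.1, 93.1, 73.3 and 0.346 CPM in WT and at 0.121, 104 and 23.7 CPM in LC3b-/-. Opn1mw, the middle-wavelength opsin, stood at 2.05, 41.1, 7.22 and 0.0384 CPM in WT and at 0.0805, 5.61 and 1.80 CPM in LC3b-/-. There were 15.2, 2.26 and 10.2 Opn1sw counts per Opn1mw count in WT F1, F2 and F3 and 18.5 and 13.2 in LC3b-/- F3 and M, so WT F2 stood apart through its high Opn1mw. In the lowest libraries Opn1mw had 1 and 2 counts, too few for a ratio.

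The transcription factors of photoreceptor identity followed the rod cascade. Nrl, which specifies rods, stood at 48.6, 511, 224 and 0.538 CPM in WT and at 1.37, 144 and 63.8 CPM in LC3b-/-. Crx, which activates genes in rods and cones, ranged from 0.154 CPM in WT M1 to 205 CPM in WT F2, and Nr2e3, which represses cone genes in rods, from 0.192 to 152 CPM in the same libraries. Of the genes of outer segment structure, Prph2, the disc rim tetraspanin, stood at 175, 1623, 739 and 1.57 CPM in WT and at 2.57, 604 and 246 CPM in LC3b-/-. Its partner Rom1 stood at 242, 1050.0, 552 and 251 CPM and at 53.7, 319 and 227 CPM. Rom1 was thus close in WT M1 and WT F1, whereas Prph2 was 1.57 CPM in the former and 175 CPM in the latter. Rp1, of the axoneme, ranged from 0.768 CPM in WT M1 to 239.7 CPM in WT F2.

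Of the guanylate cyclases and calcium sensors, Guca1a, an activator of the cyclases, stood at 34.5, 318, 125 and 1.498 CPM in WT and at 4.18, 126 and 44.5 CPM in LC3b-/-. Guca1b ranged from 1.73 to 589 CPM and recoverin, Rcvrn, from 0.0768 (2 counts) to 249 CPM, both between WT M1 and WT F2. The cyclases varied less, Gucy2e from 7.24 CPM in LC3b-/- F1 to 178 CPM in WT F2 and Gucy2f from 1.29 to 32.7 CPM in the same libraries. Gucy2e was at 38.3 CPM both in WT F1 and in WT M1.

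Of the genes that handle retinoids, Abca4, the flippase that clears retinaldehyde from disc membranes (chromosome 3, 121838092 to 121973772), stood at 495, 794, 770.5 and 686 CPM in WT and at 268, 527 and 550.0 CPM in LC3b-/-. Its 2.97-fold range over all libraries was the narrowest of the 29 genes with more than 3 counts in each library. The retinol dehydrogenases Rdh8 and Rdh12 were highest in WT F2, at 11.6 and 97.0 CPM, and were at 0 and 2.11 CPM in WT M1 and at 0.0402 and 1.81 CPM in LC3b-/- F1. Of the chaperones and trafficking genes, Unc119, which carries transducin alpha, stood at 186, 679, 357 and 219 CPM in WT and at 76.8, 264 and 195 CPM in LC3b-/-. Aipl1, the chaperone of phosphodiesterase 6, ranged from 0.230 to 237 CPM and Tulp1 from 0.269 to 635 CPM, both between WT M1 and WT F2. Of the genes of the matrix between photoreceptors and RPE, Rbp3, the retinoid carrier, stood at 165, 1336, 683 and 8.80 CPM and at 10.4, 589 and 255 CPM. Impg1 and Impg2, its proteoglycans, reached 80.7 and 72.3 CPM in WT F2 and had 2 and 3 counts in WT M1.

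A small set of genes was therefore retained where the rest was near absent. Taking the value in WT F2 as 100%, the median of the 38 genes was 12.4% in F1, 48.6% in F3 and 0.158% in M1 of the remaining WT libraries, and 0.394%, 39.7% and 17.1% in LC3b-/-. In WT M1, 29 genes were under 5% of their WT F2 value, and in LC3b-/- F1, 32. Slc24a1, Gnat2, Gngt2, Rom1, Abca4 and Unc119 were at 5% or more in both. Slc24a1 was at 82.7% and 25.4%, Abca4 at 86.4% and 33.7%, Unc119 at 32.2% and 11.3%, and Gnat2 at 28.7% and 9.86% in WT M1 and LC3b-/- F1. The nearest to the limit were Rom1, at 5.11% in LC3b-/- F1, and Gucy2e, at 21.5% in WT M1 and 4.07% in LC3b-/- F1. These 6 genes made up 96.1% of the members' counts in WT M1 and 91.0% in LC3b-/- F1, against 18.7% in WT F2 and 20.9% in LC3b-/- F3. In WT M1 Slc24a1 alone gave 43.8% and Abca4 30.3% of them. For these 6 genes the counts in the low libraries did not follow Sag, and from which cells they came was not tested. The 29 genes under 5% in both libraries summed to 43.7 CPM in WT M1 and 62.2 CPM in LC3b-/- F1, against 1837, 16353 and 7398 CPM in WT F1, F2 and F3 and 6209 and 2466 CPM in LC3b-/- F3 and M.

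**Figure D2:**
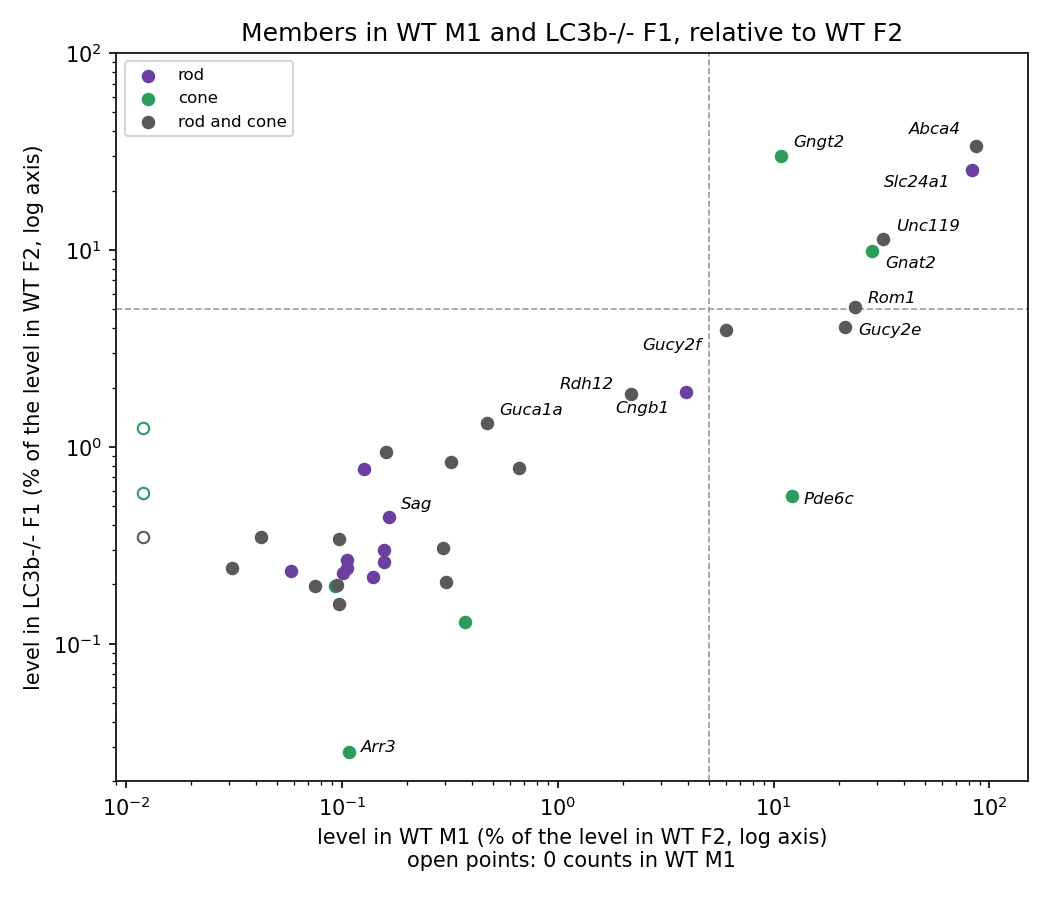
Level of each gene in WT M1 (x axis) and in LC3b-/- F1 (y axis), both as percent of its level in WT F2 on log axes, coloured by cell type; dashed lines mark 5%. Abca4, Slc24a1, Unc119, Gnat2, Rom1 and Gngt2 lie above both lines, Sag and most other genes lie under 1% on both axes, and the open points had 0 counts in WT M1.

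RNA of other cells was measured beside these values. The 12 RPE markers summed to 32735, 32010, 40094 and 50501 CPM in WT and to 14107, 16952 and 29998 CPM in LC3b-/-. By this sum the 2 libraries lowest in the 38 genes were the highest and the lowest in RPE markers. Ttr and Rgr gave much of it, at 18312 and 15160 CPM in WT M1. Pmel, Tyrp1 and Best1 went the other way and were lower in WT M1 than in LC3b-/- F1. By the mean log2 level of the 12 markers WT F3 (9.84) and WT M1 (9.83) were close, and LC3b-/- F1 (8.47) was the lowest. The 8 ocular surface epithelium genes, keratins with Dsg3 and Trp63, summed to 799, 583, 8.72 and 2353 CPM in WT and to 20525, 4866 and 3095 CPM in LC3b-/-; Krt5 alone reached 8186 CPM in LC3b-/- F1. None of the 7 endothelial genes was at 0, and their sums were 180.5 to 583 CPM in WT and 713 to 766 CPM in LC3b-/-. The 7 macrophage and microglia genes summed to 366 to 511 CPM and to 234 to 452 CPM, and the 8 lens genes to 19.1 to 23.6 CPM and to 13.0 to 18.1 CPM. The part of these cells in the photoreceptor values was not tested.

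**Figure D3:**
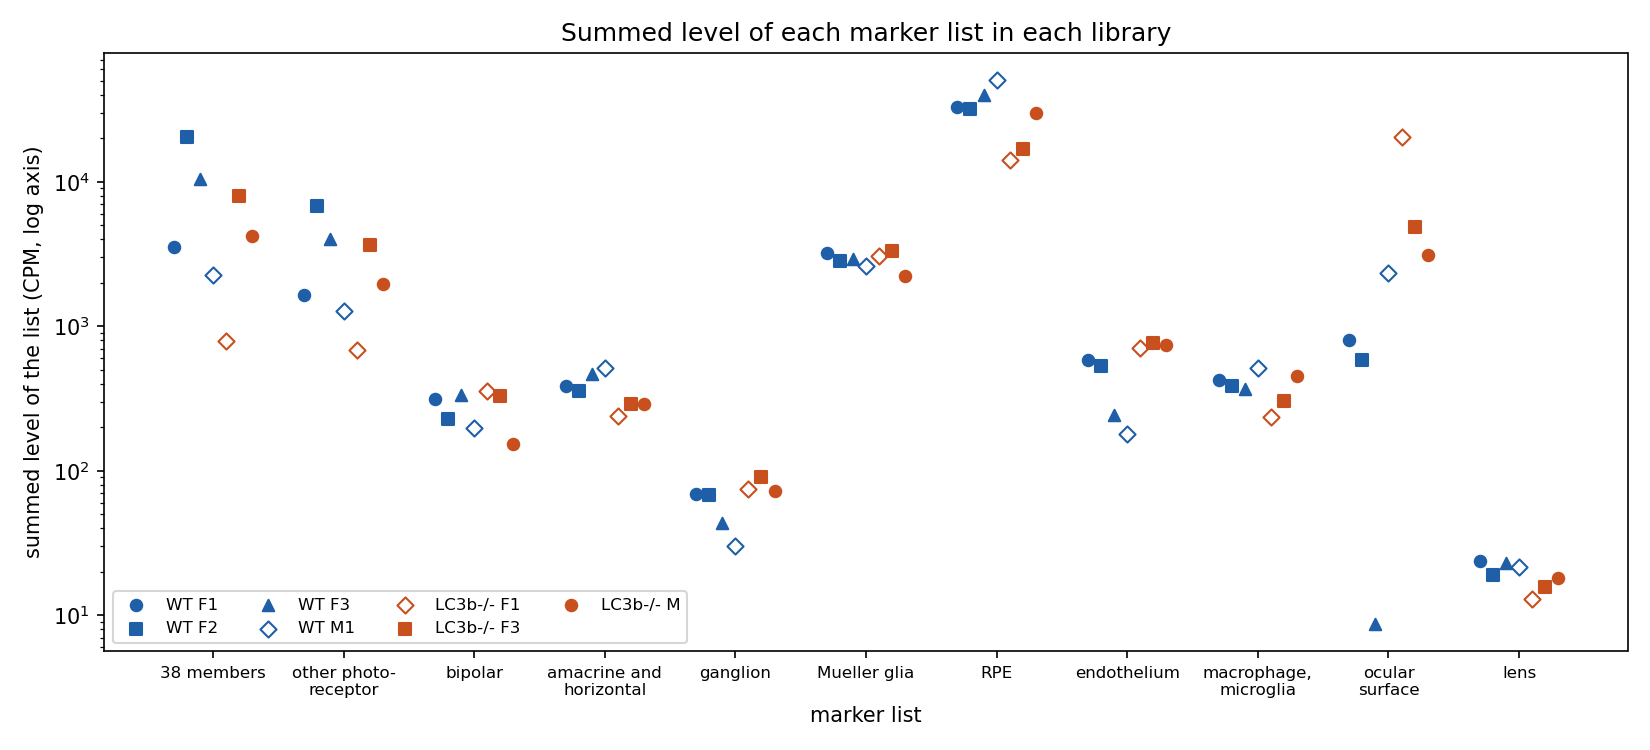
Summed level of the 38 genes and of 10 other marker lists (x axis) in each library (y axis, CPM, log axis; blue WT, orange LC3b-/-). WT M1 and LC3b-/- F1, the open diamonds, are lowest for both photoreceptor lists, while for the RPE list they are the highest (50501 CPM) and the lowest (14107 CPM) library.

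Promoters of the members were read for the core sequence to which the photoreceptor factor CRX is known to bind, TAATCC on either strand (GGATTA when read on the gene's strand in the reverse sense), in the 250 bases upstream of each start site. Of the 38 genes 30 matched an entry of the RefSeq table (GRCm38.p6, an older build than that of the counts), and 13 of them (43.3%) held the sequence, as did 1949 of 27025 genes in the table (7.21%). It was found in 4 of 8 rod, 1 of 6 cone and 8 of 16 shared promoters. Both retained and near absent members carried it: 3 of 5 genes at 5% or more in WT M1 and LC3b-/- F1, and 8 of 23 under 5% in both. Gnat1, Pde6a, Pde6g, Gngt2, Pde6c, Rcvrn, Guca1b and Rp1 were not matched. The last 120 bases upstream of 6 start sites are given to set 3 near absent genes (Sag, Gngt1 and Rbp3) beside 3 retained ones (Gnat2, Abca4 and Slc24a1); capitals mark the sequence, which Slc24a1 lacks in this window.
Sag, chr1:87803560-87803679, plus strand: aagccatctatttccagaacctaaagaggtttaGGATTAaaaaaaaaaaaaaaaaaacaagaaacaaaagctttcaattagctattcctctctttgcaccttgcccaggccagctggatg
Gngt1, chr6:3993888-3994007, plus strand: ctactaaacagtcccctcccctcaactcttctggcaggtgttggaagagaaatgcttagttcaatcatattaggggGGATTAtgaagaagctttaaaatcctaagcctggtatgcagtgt
Rbp3, chr14:33953883-33954002, plus strand: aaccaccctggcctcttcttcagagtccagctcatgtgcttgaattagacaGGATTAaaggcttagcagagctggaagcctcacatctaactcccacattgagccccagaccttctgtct
Gnat2, chr3:108092946-108093065, plus strand: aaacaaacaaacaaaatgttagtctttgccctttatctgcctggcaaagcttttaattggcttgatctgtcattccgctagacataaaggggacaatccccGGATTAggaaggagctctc
Abca4, chr3:122044340-122044459, plus strand: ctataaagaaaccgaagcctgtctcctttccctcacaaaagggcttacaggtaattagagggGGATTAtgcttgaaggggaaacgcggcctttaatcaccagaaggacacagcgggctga
Slc24a1, chr9:64951621-64951740, minus strand: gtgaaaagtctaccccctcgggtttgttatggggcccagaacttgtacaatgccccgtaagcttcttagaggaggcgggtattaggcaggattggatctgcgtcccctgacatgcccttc

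Rod genes were next set against cone genes in each library. Summed over their genes, rods stood at 1759, 10840, 5521 and 1014 CPM in WT and at 337, 3991 and 2121 CPM in LC3b-/-, and cones at 103, 486, 196 and 31.3 CPM and at 17.4, 223 and 80.0 CPM. On the log2 scale the rod to cone ratio was 4.60 ± 0.40 (SD, n = 4) in WT and 4.39 ± 0.30 (SD, n = 3) in LC3b-/-, a difference of −0.21 that is smaller than the pooled SD of 0.37. The nearly even ratio hides the composition of the low libraries, in which Slc24a1 gave most of the rod sum. Without it the rod sum was 23.7 CPM in WT M1 and 32.5 CPM in LC3b-/- F1. The log2 ratio was then −0.40 and 0.90 there, against 3.36 to 4.50 in the other libraries. This step took a retained gene from the rods only, and the cone sum still held the retained Gnat2 and Gngt2. These stood at 22.5 and 3.15 of 31.3 CPM in WT M1 and at 7.72 and 8.81 of 17.4 CPM in LC3b-/- F1.

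Gene by gene, 6 rod genes or gene pairs were set against their cone counterparts. Per cone count there were 10.6, 11.6, 21.9 and 17.8 rod counts of arrestin (Sag over Arr3) in WT, and 30.4 and 22.4 in the F3 and M libraries of LC3b-/-. This pair kept rods above cones even in WT M1, where Arr3 had 4 counts. So did the phosphodiesterase 6 gamma and channel alpha pairs, on few counts. In WT M1 there were 15 Pde6g and 0 Pde6h counts, and 7 Cnga1 and 0 Cnga3 counts. In LC3b-/- F1 there were 33 Pde6g and 8 Pde6h counts, and 27 Cnga1 and 1 Cnga3 count. For transducin alpha the ratios were 18.9, 55.1, 51.2 and 0.195 in WT and 1.27, 45.4 and 32.2 in LC3b-/-, and for transducin gamma 3.93, 13.2, 17.7 and 0.171 and 0.0959, 7.69 and 4.87. Cone subunits thus outnumbered rod subunits in WT M1 for both, and in LC3b-/- F1 for transducin gamma, and they did so per kilobase as well (0.172 and 0.290 in WT M1, 0.163 in LC3b-/- F1). For the catalytic subunits of phosphodiesterase 6 the ratios were 14.1, 30.3, 41.9 and 0.393 in WT and 15.0, 35.9 and 33.8 in LC3b-/-, so here LC3b-/- F1 lay with the other libraries and WT M1 did not. The LC3b-/- F1 ratio rests on 6 Pde6c counts, against 135 in WT M1. Summed over the 6 comparisons the ratio was 13.5, 24.6, 34.2 and 0.340 in WT and 1.40, 27.7 and 23.4 in LC3b-/-. The largest cone count of this sum in WT M1 was that of Gnat2, at 585. The log2 means were 2.98 ± 3.07 (SD, n = 4) and 3.27 ± 2.42 (SD, n = 3), and their difference of 0.29 was far within the pooled SD of 2.83. Scaled by transcript length, the summed ratio was 12.9, 23.3, 32.5 and 0.358 in WT and 1.45, 29.1 and 22.8 in LC3b-/-.

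**Figure D4:**
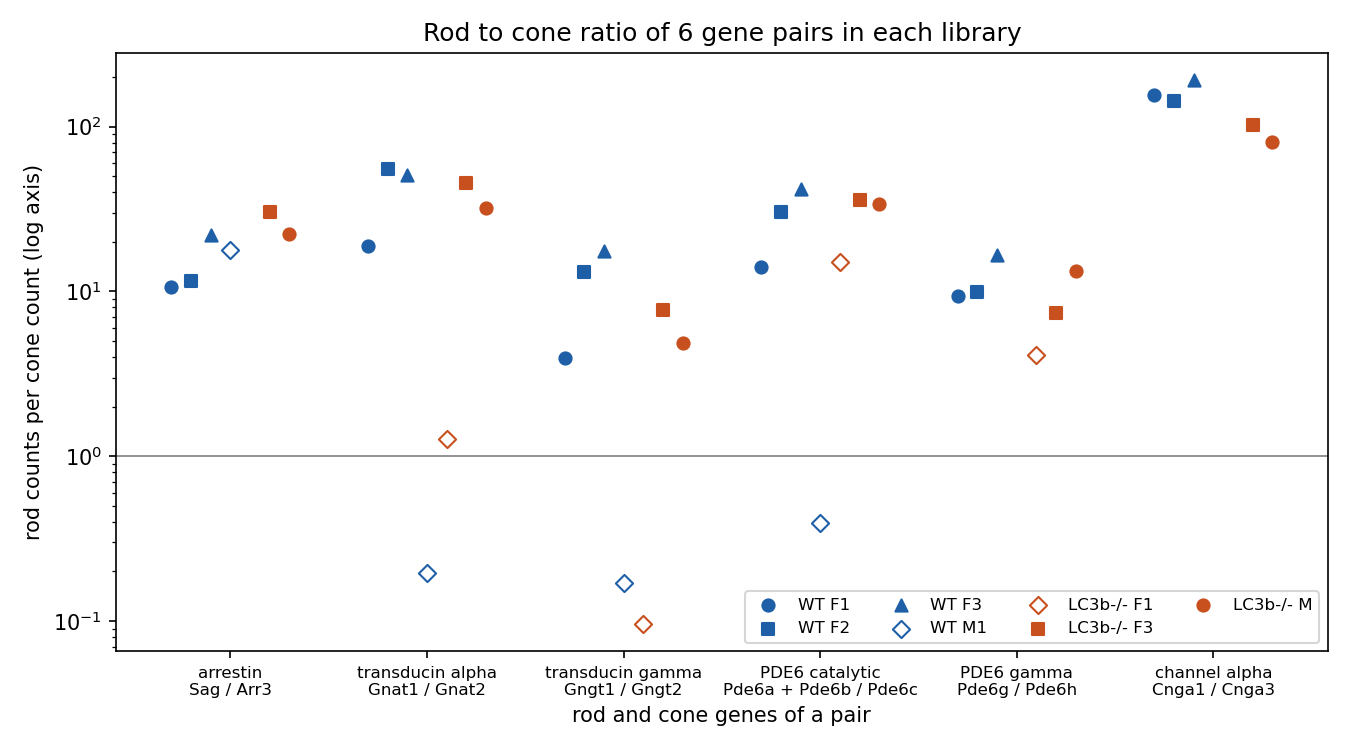
Rod counts per cone count (y axis, log axis) of 6 gene pairs (x axis) in each library (blue WT, orange LC3b-/-), with no point where the cone gene had 3 counts or fewer. The filled symbols lie above 1 in every pair, and WT M1 lies below 1 for both transducin pairs and the catalytic pair (0.195, 0.171 and 0.393).

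LC3b-/- and WT were then compared gene by gene with edgeR's quasi-likelihood test over all 16990 genes, a gene being called where the adjusted p was under 0.05 and the levels differed at least 1.5-fold. None of the 38 genes was called, where 0.235% of all genes were. All 38 fitted log2 fold changes of LC3b-/- over WT were below 0, from −2.32 (Opn1mw) to −0.03 (Impg2), with a median of −1.05 beside 0.01 over all genes tested. The medians were −1.25 for rod, −1.07 for cone and −0.94 for shared genes. For 29 of the 38 the fold change was smaller than its standard error, and the genotypes overlapped for every one of them, so 0 of 38 had all LC3b-/- libraries below all WT libraries, against 10.3% of all genes. The 38 values are not independent, since they share the order of libraries described above. The mean log2 level of the 38 genes was 5.11 ± 3.14 (SD, n = 4) in WT and 4.34 ± 2.94 (SD, n = 3) in LC3b-/-.

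Sag had a log2 fold change of −0.74 (standard error 1.74, edgeR adjusted p = 0.827) and Arr3 of −1.78 (standard error 1.78, adjusted p = 0.568). Gnat1 had −1.39 (standard error 1.84, adjusted p = 0.677). With standard errors of this size, differences of severalfold in either direction were not detectable for genes of this kind. Slc24a1 was the only one of the 38 with an unadjusted p under 0.05 and a lower level in LC3b-/-, against 10.6% of all genes: its means were 999 ± 217 CPM (SD, n = 4) in WT and 513 ± 202 CPM (SD, n = 3) in LC3b-/-, with a log2 fold change of −0.96 (standard error 0.32, edgeR adjusted p = 0.144). An exact permutation test of its log2 level over all 35 assignments of the libraries to genotypes gave a two-sided p of 0.114. The two-sided p doubles the smaller one-sided p, which is at least 0.0286, so this test could not fall below 0.05. The value of LC3b-/- M (708 CPM) lay above that of WT F1 (699 CPM). DESeq2 called Slc24a1 (adjusted p = 0.0215) as the only one of the 38, and called 1831 of the 16990 genes tested. The next smallest adjusted p-values belonged to other genes retained in the low libraries: Abca4 (−0.61, standard error 0.29, adjusted p = 0.248), Gnat2 (−1.14, standard error 0.57, 0.267), Rom1 (−1.39, standard error 0.73, 0.286) and Unc119 (−1.01, standard error 0.57, 0.313).

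Beside these values, 11 of the 12 RPE markers were also lower in LC3b-/-, 8 of them with an unadjusted p under 0.05 and none called, among them Rrh (−1.30, edgeR adjusted p = 0.0990), Lrat (−1.58, 0.103), Rdh5 (−1.10, 0.110) and Rgr (−1.10, 0.155). All 8 ocular surface genes were higher in LC3b-/-, 5 with an unadjusted p under 0.05 and none called. The size of the median over the 38 genes rested on single libraries: without WT F2 it was −0.13, without LC3b-/- F3 −2.26, and with sex as a covariate −0.11, and none of the 38 genes was called in any of these. The directions were not stable either: 14 of the 38 were higher in LC3b-/- without WT F2, 12 with sex as a covariate, 8 with limma voom and 6 without LC3b-/- F1.

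**Figure D5:**
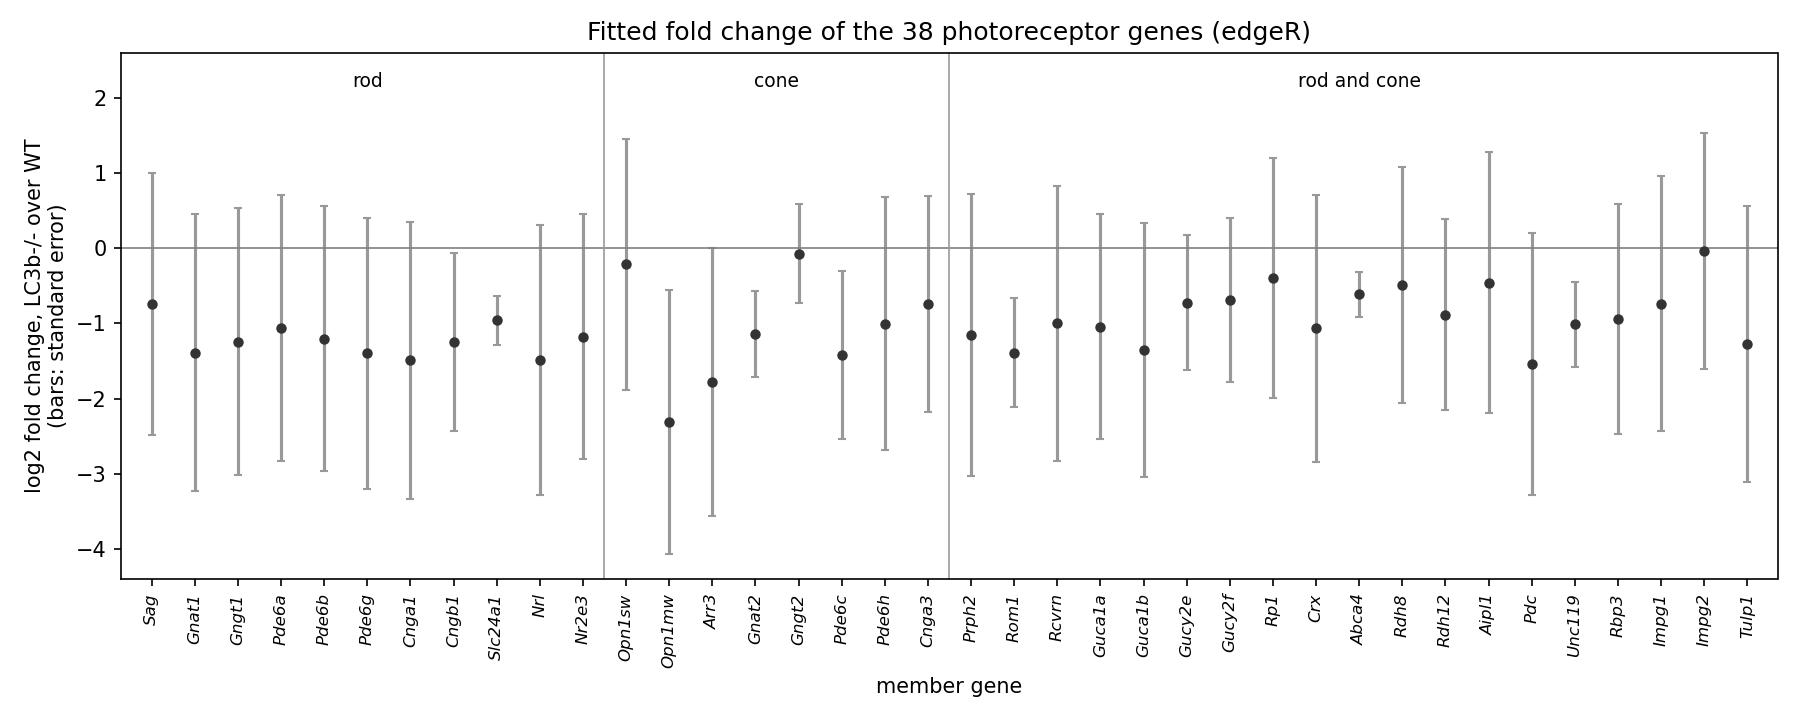
Fitted log2 fold change of LC3b-/- over WT (y axis; bars are standard errors) for each of the 38 genes (x axis). All points lie below 0 (14 were above it without WT F2), most bars cross it, and the shortest bars belong to Abca4 (0.29) and Slc24a1 (0.32).

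To set the level of Sag aside, each gene was also read against Sag of the same library. Per 100 Sag counts there were 222.7, 260.8, 221.8 and 160.6 Gnat1 counts in WT and 134.8, 143.9 and 193.1 in LC3b-/-. The catalytic subunit Pde6b kept the narrowest values, at 33.0, 35.7, 35.7 and 33.8 in WT and 24.3, 25.2 and 27.1 in LC3b-/-. All LC3b-/- libraries lay below all WT libraries in 6 of the other 37 genes (Gngt1, Pde6a, Pde6b, Arr3, Guca1b and Pdc), where 0.100% of the tested genes did, and above them in 1 (Impg2), where 0.265% did. Impg2 stood at 4.34, 4.37, 4.35 and 4.23 per 100 Sag counts in WT and at 9.39, 6.47 and 8.83 in LC3b-/-. For a gene that does not vary with Sag this ratio mirrors Sag itself, so these background shares are no measure for genes that do, and the 3 Impg2 counts of WT M1 and the single Arr3 count of LC3b-/- F1 carry wide counting errors. The other WT M1 ratios also rest on few counts: 71 of Sag, 14 of Gngt1, 29 of Pde6a and 24 of Pde6b. These ratios share 1 denominator and are a description with no test.

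Other photoreceptor genes, a list of 34 chosen for their known expression in rods or cones, were read in the same fit. All 34 were tested, none was called, and 31 were lower and 3 higher in LC3b-/-, with a median log2 fold change of −0.76. Their summed level was 1638, 6793, 3990 and 1272 CPM in WT and 689, 3629 and 1963 CPM in LC3b-/-, the same order as for the members. Those with an unadjusted p under 0.05 were Prcd, a small disc protein (−1.10, edgeR adjusted p = 0.103), Rgs9, which speeds the shutoff of transducin (−1.002, 0.157), and Thrb, a receptor that specifies cones (−0.41, 0.183). Like Slc24a1 these had narrow ranges: Prcd stood at 112, 193, 186 and 150.1 CPM in WT and 46.6, 83.8 and 94.3 CPM in LC3b-/-. Gnb1, the beta subunit of rod transducin, which many cells make, took the most counts of the list, at 536, 1967, 1124 and 457 CPM in WT and 342, 865 and 611 CPM in LC3b-/-.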

How the data were processed

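The authors' deposited table holds estimated counts per Ensembl gene (made with Salmon from the GRCm39 transcripts of GENCODE vM26, then added up per gene), as whole numbers not scaled for depth or length. Each of the 7 columns matched 1 sample by name and 0 columns were left unused. Gene names and canonical transcript lengths came from GENCODE vM39, which matched 51721 of 52740 identifiers; the unmatched ones held 0.0320% to 0.0436% of counts. The 38 genes, the other marker lists and the alternatives were chosen with earlier results of these data known. All 38 are named; values in every library are given for the arrestins, the rod and cone pairs, the cone opsins, the most abundant gene of each role per kilobase, and genes with an unadjusted p under 0.05, and further values for genes the text turns on. Other lists contribute up to 4 genes with the smallest p and the most abundant gene.

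Counts were filtered with filterByExpr, scaled with TMM (factors 0.931 to 1.12) and tested with edgeR 4.0.16 (R 4.3.3) by quasi-likelihood F-tests on genotype, adjusted by the Benjamini-Hochberg method over 16990 genes. The biological coefficient of variation was 0.398. On simulated counts for this comparison (16374 genes, 200 changed) 187 (93.5%) were recovered with 11 false calls. This share holds only for the changes that were simulated, and is no measure of power at the fold threshold. Nor does it apply to the 38 photoreceptor genes. The median standard error of their log2 fold changes was 1.68, against 0.246 over all genes tested. DESeq2 1.42.0, limma 3.58.1 (voom with quality weights), other scalings, filters and covariates, and leaving out libraries were the alternatives. Pairs of libraries of 1 genotype differed with chi-square values of 66.4 to 219 per degree of freedom, and no pair was a copy. Near-identical sequence was searched with BLAST 2.17.0 (at least 95% over 100 bases). The floor of 3 counts covers counting error only.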

Additional observations from a re-analysis of the deposited data

Results flagged for a closer look

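Among 67 levels and sums examined in the 4 WT libraries, 2 had 1 library far from the other 3. This was judged by the gap to its neighbour as a share of the whole range, and chance alone marks about 1 group in 20. The 67 did not cover every gene of the marker lists. C1qa (66.7, 67.4, 21.1 and 66.3 CPM in WT) and Rpe65 (2177, 2130, 2435 and 3965 CPM) also had 1 library apart and were not among them. Krt12, a keratin of corneal epithelium, stood at 785 CPM in WT M1 and at 0.0877, 26.2 and 1.09 CPM in WT F1, F2 and F3, a gap of 0.967 of the range. Ttr, the transthyretin gene, which RPE expresses strongly, stood at 18312 CPM in WT M1 and at 11759, 11693 and 12476 CPM in the others, a gap of 0.882 of the range. WT M1 is also the WT library with the lowest sum of the 38 genes, and none of the 38 photoreceptor genes met the criterion.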

How the results depend on the processing

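None of the 38 genes was called under any alternative except Slc24a1 with DESeq2, which made the count 1 (log2 fold change −0.99, adjusted p = 0.0215). Of all genes, 40 were called by edgeR, against 1831 with DESeq2, 124 with voom, 78 without the filter on low counts, 197 with sex as a covariate, 96 in females only and 5 without both WT M1 and LC3b-/- F1, an alternative chosen after seeing the data, as was leaving Slc24a1 out of the rod sum. Leaving out 1 library at a time gave 11 (without LC3b-/- F3) to 485 (without LC3b-/- M). The median log2 fold change of the 38 genes stayed below 0 throughout: −0.66 with voom, −0.90 without both low libraries, and between −2.26 (without LC3b-/- F3) and −0.13 (without WT F2) with 1 library left out. Sag (−0.74) turned to 0.39 with sex as a covariate and lay between −2.18 (without LC3b-/- F3) and 0.21 (without WT F2) with 1 library left out. Opn1sw turned to 0.89 with sex as a covariate, 0.29 and 0.02 when F2 or F3 of WT was left out, 0.37 and 0.07 when F1 or M of LC3b-/- was, and −2.10 without LC3b-/- F3. Of the refits of 10 single genes, 159 kept their direction and side of the threshold, 7 turned and 1 passed it. The rod to cone difference of −0.21 was 0.29 over the 6 pairs and 0.06 without Slc24a1. The cause of these changes was not tested. F1 and F3 are the only numbers shared by the genotypes and name different mice (correlations of deviations 0.146 and 0.243), so they pair nothing; with the number as a replicate block 0 genes were called by edgeR, 2889 having an unadjusted p under 0.05, and the members' median was −2.09. Requiring 10 counts in every library left 23 of the 38 genes.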

Other observations

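Beyond the lists, 128 of the 11587 genes at 5 CPM or more in WT F2 were under 5% of that value in both WT M1 and LC3b-/- F1. Of these, 28 were among the 38 photoreceptor genes, 15 among the other photoreceptor genes and 85 in no list. Together they took 0.370%, 3.23%, 1.46% and 0.0105% of the counts in WT (F1, F2, F3, M1) and 0.0132%, 1.48% and 0.526% in LC3b-/- (F1, F3, M). They were chosen by their values, so no test applies. Among the 85, Slc17a7, the vesicular glutamate transporter of photoreceptor and bipolar terminals, stood at 67.1, 592, 262 and 0.922 CPM in WT and at 1.45, 341 and 117 CPM in LC3b-/-. Crb1, a polarity gene of the outer limiting membrane, stood at 13.5, 85.2, 46.7 and 1.31 CPM and at 2.86, 73.1 and 20.8 CPM. Rnf207 was among those higher in LC3b-/- F3 than in WT F2, at 14.5, 55.1, 32.7 and 0.0768 CPM and at 0.764, 99.6 and 35.5 CPM.

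Of the 26 genes in the bipolar, amacrine and horizontal, and ganglion cell lists, 24 had more than 3 counts in some library. On the CPM scale 16 of these were highest in LC3b-/- F3, 5 in LC3b-/- F1 and 1 each in WT F2 (Onecut1), WT F3 (Nyx) and WT M1 (Slc6a9). Grm6, the glutamate receptor of ON bipolar cells, stood at 0.702, 4.22, 0.748 and 0 CPM in WT and at 0, 6.09 and 2.09 CPM in LC3b-/-, so LC3b-/- F3 and WT F2 were close. Gad1, which makes GABA, stood at 0.205, 0.414, 0.674 and 0.0768 CPM in WT and at 0.0805, 7.99 and 0.502 CPM in LC3b-/-. Slc6a9, a glycine transporter, and Trpm1, a channel of ON bipolar cells and melanocytes, were among those that did not follow, at 502 CPM for Slc6a9 in WT M1 and 311 CPM for Trpm1 in LC3b-/- F1.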
